A study of Mus musculus with 6 samples.

Results

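RNA-modifying enzymes change the bases or riboses of transfer, ribosomal, messenger and small nuclear RNA after transcription. The genes described here are those whose symbols begin, before a digit, with Trmt, Nsun, Pus, Dus, Elp, Thumpd, Ctu, Tyw, Mettl or Alkbh, with Kti12, Pcif1 and Zcchc4 added. Mettl3, Mettl14, Mettl16, Alkbh5 and pseudogenes were left out. The rule used names only and found 82 of the 55367 genes in the table. Not every member is an RNA-modifying enzyme. Of the METTL genes, 16 encode enzymes that methylate proteins or small molecules or have no settled substrate. Another 2 symbols, Mettl5os and Alkbh3os1, are antisense RNAs. Some of the rest are partners of such enzymes, such as Kti12, Thumpd1 and Trmt112, or have other reported roles, such as Alkbh2 and Alkbh4. Of the 82, 73 reached a mean of 10 reads and entered the test.

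RNA sequencing was done on LLC cells, an established mouse cell line of Lewis lung carcinoma, labelled as lung tissue and, in both groups, as wild type. The cells were kept for 46 h with 5 µM STM2457 or with the solvent DMSO, with 3 libraries in each group. STM2457 is a small molecule that blocks the catalytic activity of METTL3, the writer of N6-methyladenosine (m6A) on messenger RNA, and the comparison asks which transcripts differ after that block. Nothing in the labels ties the libraries of a group to separate cultures, and p-values therefore measure the spread between 3 libraries of a single line, which may be technical.

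The libraries held 17671679 to 17917218 reads in genes, recovered from the deposited log2 values. Genes of lung epithelium were nearly absent: Epcam, Cdh1 and Nkx2-1 had no read in any library, and the 6 markers together had 0 to 7 reads in STM2457 libraries and 10 to 12 in DMSO libraries. The mesenchymal genes Vim and Fn1 together had 73966 to 75674 reads in STM2457 libraries and 92546 to 93327 in DMSO libraries. Of the leukocyte markers, Adgre1, Cd3e and Itgam had none, and the sum of the 6 was 88 to 110 in STM2457 and 96 to 112 in DMSO, nearly all from Cd68. The 3 endothelial markers summed to at most 9 reads. Mettl3 itself had 502, 454 and 518 reads with STM2457 and 468, 605 and 538 with DMSO, and did not pass the test (limma adjusted p = 0.15). It did pass as lower once DMSO replicate 1 was left out (0.0089) or libraries were centred on the upper quartile (0.04), and the compound acts on its protein, so its transcript does not check the labels. In these bulk libraries fewer cells of a type and less RNA per cell cannot be told apart.

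Most of these enzymes act on transfer RNA (tRNA). Modifications in the anticodon loop, such as those of the wobble uridine and of the base next to the anticodon, help the ribosome read codons, whereas those in the body of the molecule help it to fold and keep it from decay. Many of the enzymes work as a catalytic subunit with a partner that it needs, and mitochondria have a set of their own, encoded in the nucleus.

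After STM2457, 29 of the 73 tested genes rose and 13 fell, and 31 did not pass the test (limma on the deposited log2 values, adjusted p under 0.05). Of all 12618 tested genes 30.7% rose and 25.7% fell. The members' shares were 39.7% and 17.8%. With a minimum of 50 reads 40.8% of 71 members rose and 18.3% fell, against 35.6% and 25.2% of all genes. The split depended on the scaling: with libraries centred on their upper quartile 21 members rose (28.8%) and 20 fell (27.4%), against 22.3% and 38.2% of all tested genes. In DMSO replicate 2, 50 of the 73 lay above the mean of the other DMSO libraries (median log2 deviation 0.02). Leaving out that library gave 30 rises and 10 falls. The median log2 difference in the deposited values was 0.04 over the members, against 0.00 over all tested genes.

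Most changes were small. Of the 73 tested members, 6 passed the test and rose at least 1.5-fold in recovered reads (Kti12, Trmt61a, Mettl18, Pus1, Trmt44 and Pus7l). Another 2 passed and fell as far (Mettl27 and Mettl7b). By the same 2 criteria 495 of all 12618 tested genes (3.92%) rose and 962 (7.62%) fell. The antisense RNA Alkbh3os1 had a fold of 0.632 and did not pass. In 29 of the 73 tested members the STM2457 libraries all lay above the DMSO libraries and in 12 all below. Of all 12618 tested genes 4216 (33.4%) lay all above and 3579 (28.4%) all below. The counts differed by role, in groups drawn with earlier results of these data known. Of the tested members, 62 lay outside the METTL genes with other or unsettled substrates and the antisense RNAs. Of these 62, 28 rose (45.2%) and 8 fell (12.9%). Of the 10 tested METTL genes with other substrates, 1 rose (10%) and 5 fell (50%). By the same test alone 30.7% of all 12618 tested genes rose and 25.7% fell. Counts by role were taken at the main setting only. No test of that difference between roles was made.

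**Figure D1:**
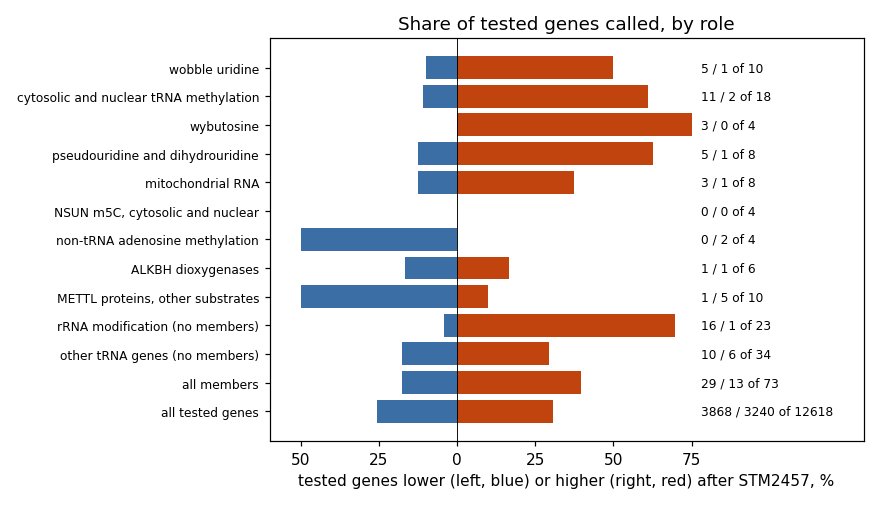
Share of tested genes that were higher (red, to the right) or lower (blue, to the left) after STM2457, by role, with counts higher / lower of tested at the right; the 2 bars marked "no members" are genes of the same pathways outside the name rule. In the role of cytosolic and nuclear tRNA methylation, which also holds the acetylation adaptor Thumpd1, 11 of 18 rose and 2 fell. Of 10 METTL genes with other substrates 5 fell and 1 rose. Of all 12618 tested genes 3868 rose (30.7%) and 3240 fell (25.7%).

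Promoters of 6 members are shown here from RefSeq on GRCm38.p6, 250 bases before to 50 after the annotated start, 5′ to 3′ on the gene's strand. Capitals mark matches to the E-box CACGTG, a palindrome bound by MYC and related factors. Kti12 and Trmt61a rose most, Pus1 rose most in its class, Mettl27 and Mettl7b fell most among those that passed, and Mettl1, which fell slightly, is shown because it holds the same motif.
Kti12 (chr4:108847607-108847906, plus strand): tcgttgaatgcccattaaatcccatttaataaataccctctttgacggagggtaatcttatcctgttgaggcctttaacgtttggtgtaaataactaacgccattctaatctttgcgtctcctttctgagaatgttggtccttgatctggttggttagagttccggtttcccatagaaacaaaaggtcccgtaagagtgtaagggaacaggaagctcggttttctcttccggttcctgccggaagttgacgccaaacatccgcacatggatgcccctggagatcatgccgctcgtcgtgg
Trmt61a (chr12:111677855-111678154, plus strand): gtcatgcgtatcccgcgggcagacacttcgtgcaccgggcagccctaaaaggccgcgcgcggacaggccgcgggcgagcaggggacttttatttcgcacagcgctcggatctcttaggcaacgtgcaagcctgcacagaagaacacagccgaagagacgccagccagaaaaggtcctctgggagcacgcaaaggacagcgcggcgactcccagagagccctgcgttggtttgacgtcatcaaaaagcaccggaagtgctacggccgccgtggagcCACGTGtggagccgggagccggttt
Pus1 (chr5:110780547-110780846, minus strand): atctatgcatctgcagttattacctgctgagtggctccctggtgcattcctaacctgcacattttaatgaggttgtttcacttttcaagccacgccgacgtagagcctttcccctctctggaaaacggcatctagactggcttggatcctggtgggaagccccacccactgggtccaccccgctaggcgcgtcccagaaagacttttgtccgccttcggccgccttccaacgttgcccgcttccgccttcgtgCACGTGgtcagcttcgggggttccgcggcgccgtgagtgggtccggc
Mettl27 (chr5:134932274-134932573, plus strand): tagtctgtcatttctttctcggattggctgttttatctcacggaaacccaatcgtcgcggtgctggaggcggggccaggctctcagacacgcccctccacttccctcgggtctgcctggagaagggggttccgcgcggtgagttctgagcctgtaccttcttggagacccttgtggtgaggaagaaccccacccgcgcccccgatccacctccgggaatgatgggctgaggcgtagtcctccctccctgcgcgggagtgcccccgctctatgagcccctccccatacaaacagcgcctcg
Mettl7b (chr10:128960939-128961238, minus strand): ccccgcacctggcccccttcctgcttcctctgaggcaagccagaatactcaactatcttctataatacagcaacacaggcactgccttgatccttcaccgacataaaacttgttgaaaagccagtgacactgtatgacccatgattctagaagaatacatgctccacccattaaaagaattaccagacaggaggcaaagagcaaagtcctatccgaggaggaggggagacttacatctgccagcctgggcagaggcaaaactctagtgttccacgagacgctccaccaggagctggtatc
Mettl1 (chr10:127041682-127041981, plus strand): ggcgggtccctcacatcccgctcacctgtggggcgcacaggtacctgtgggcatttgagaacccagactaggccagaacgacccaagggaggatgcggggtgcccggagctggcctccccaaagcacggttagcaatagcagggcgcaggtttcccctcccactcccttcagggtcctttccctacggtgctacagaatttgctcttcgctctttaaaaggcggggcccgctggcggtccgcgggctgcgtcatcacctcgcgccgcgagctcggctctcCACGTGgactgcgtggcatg

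The E-box began 25 bases after the start in Trmt61a, 3 after it in Pus1 and 30 after it in Mettl1, and these letters were not in the windows of Kti12, Mettl27 and Mettl7b. Over the protein-coding members, 13.9% of 36 promoter windows of genes that rose held CACGTG, with Pus1 counted in both of its overlapping windows, 6.67% of 15 of genes that fell and 7.69% of 26 of genes that did not pass. Over all tested protein-coding genes the shares were 11.3%, 9.89% and 9.07% in that order, and 7.15% over all 32851 windows in the table. Both strands were searched. Trmt61b, which rose, is annotated as antisense and is not in the tally of members. A window of that gene held CACGTG, at -9 from the start. The ATF4 composite site TGATGCAA was in none of the windows of protein-coding members, against 0.895% of all windows.

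Wobble uridine modification begins with Elongator, a complex in which ELP3 is catalytic and ELP4 to ELP6 form an accessory ring. ALKBH8 then methylates the side chain and the CTU1 and CTU2 proteins exchange an oxygen for sulfur. Of 10 tested genes of this pathway 5 rose (50%) and 1 fell (10%), beside 30.7% and 25.7% of all tested genes. The change was largest in Kti12, whose yeast counterpart is an ATPase that binds Elongator. Kti12 had 1824, 2061 and 1858 reads with STM2457, against 933, 956 and 934 with DMSO. The lowest STM2457 library was thus well above the highest DMSO library, a 2.02-fold rise (log2 fold 1.01, SE 0.05; limma adjusted p = 3.5e-14). Kti12 is an intronless gene (GRCm38 chromosome 4, positions 108847785 to 108849413, plus strand). Its exon overlaps A730015C16Rik on the other strand over 835 bases. Whether counting used strand is not stated in the labels, so reads of Kti12 and of the other members with such an overlap are uncertain. Of the 40 tested members with no exon overlap 18 rose (45%) and 7 fell (17.5%).

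Elongator subunits changed less and not in 1 direction: Elp4 and Elp5 rose, Elp2 fell, and Elp3 and Elp6 did not pass. Elp3, the catalytic subunit, had 1090, 1015 and 1049 reads with STM2457 and 1044, 1030 and 1090 with DMSO (log2 fold -0.01, SE 0.05; adjusted p = 0.81), so the groups overlapped fully. Elp6 had a fold of 1.02 (adjusted p = 0.73). Elp2, a WD-repeat subunit, fell to 0.915 of DMSO (adjusted p = 0.0053), with 2660, 2608 and 2574 reads against 2843, 2828 and 2844. Elp5 rose 1.10-fold (adjusted p = 0.0089), a call lost with upper-quartile centring (0.17). Elp4 rose 1.13-fold at an adjusted p of 0.046, with overlapping groups. It no longer passed when DMSO replicate 1 or 2 or STM2457 replicate 1 or 2 was left out (adjusted p from 0.092 to 0.22), with the replicate number as a block (0.053), with no minimum level (0.055) and with upper-quartile centring (0.28). Per kilobase of exon, Kti12 reads were 3.08, 3.74 and 3.26 times those of Elp3 with STM2457 and 1.65, 1.71 and 1.58 times with DMSO.

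Ctu1, the subunit that activates the uridine for sulfur transfer, had 267, 291 and 309 reads with STM2457 and 179, 247 and 197 with DMSO. All STM2457 libraries were above all DMSO libraries, and Ctu1 rose 1.39-fold (log2 fold 0.48, SE 0.10; adjusted p = 2.5e-04). Its partner Ctu2 had 443, 490 and 404 reads with STM2457 and 428, 395 and 433 with DMSO, which overlapped (adjusted p = 0.37). The exons of Ctu2 overlap Piezo1 on the other strand over 2441 bases. Alkbh8 rose 1.24-fold (adjusted p = 4.8e-04), with 495, 475 and 457 reads against 414, 352 and 377. Trmt9b, named for its likeness to the yeast tRNA methyltransferase Trm9, had 1, 0 and 2 reads with STM2457 and 0, 0 and 1 with DMSO and was not tested.

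The role grouped as cytosolic and nuclear tRNA methylation was the largest, with 18 tested genes. The group also holds partner genes and Thumpd1, whose protein serves an acetyltransferase, so its shares are not of methyltransferase genes alone. Of the 18 genes 11 rose (61.1%), 2 fell (11.1%) and 5 did not pass, whereas 30.7% of all tested genes rose and 25.7% fell. TRMT61A and TRMT6 together write N1-methyladenosine in the T loop, TRMT61A as the catalytic subunit. Trmt61a had 394, 349 and 351 reads with STM2457 and 180, 215 and 179 with DMSO. The groups lay far apart, a rise of 1.89-fold (log2 fold 0.92, SE 0.09; adjusted p = 1.9e-09). Trmt6 rose less, 1.18-fold (log2 fold 0.24, SE 0.05; adjusted p = 1.3e-04), with 1276, 1182 and 1160 reads with STM2457 against 998, 1013 and 1022 with DMSO. Per kilobase of exon, reads of Trmt61a were 0.683, 0.653 and 0.67 of those of Trmt6 with STM2457 and 0.399, 0.47 and 0.388 with DMSO. The log2 ratio differed by 0.68 between groups without overlap, which in an exact two-sided permutation test gave p = 0.1, the smallest this design allows, and p = 0.133 adjusted over the 4 partner ratios compared.

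METTL1 and WDR4 form another pair, which writes 7-methylguanosine in the variable loop; Wdr4 lies outside the name rule. Mettl1, the catalytic subunit, had 564, 522 and 582 reads with STM2457 and 581, 657 and 601 with DMSO. Once scaled for library size the groups did not overlap, although narrowly, and Mettl1 fell to 0.901 of DMSO (adjusted p = 0.039). It no longer passed when DMSO replicate 2 or 3 or STM2457 replicate 1 or 2 was left out (adjusted p from 0.062 to 0.21). Wdr4 had 1045, 1016 and 979 reads with STM2457 and 749, 769 and 757 with DMSO, and rose 1.33-fold (adjusted p = 1.5e-07). The exons of Wdr4 overlap AC166172.3 on the other strand over 585 bases, and those of Mettl1 overlap Eef1akmt3 over 100, so the reads of both are uncertain. The ratio of Mettl1 to Wdr4, per kilobase of exon, was 1.01, 0.961 and 1.11 with STM2457 and 1.45, 1.60 and 1.49 with DMSO (log2 difference -0.56; exact permutation p = 0.1, adjusted p = 0.133). The exact permutation test gave p = 0.1 for the ratio of Kti12 to Elp3 (log2 difference 1.03; adjusted p = 0.133) and p = 0.3 for that of Ctu1 to Ctu2 (0.40; adjusted p = 0.3).

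**Figure D2:**
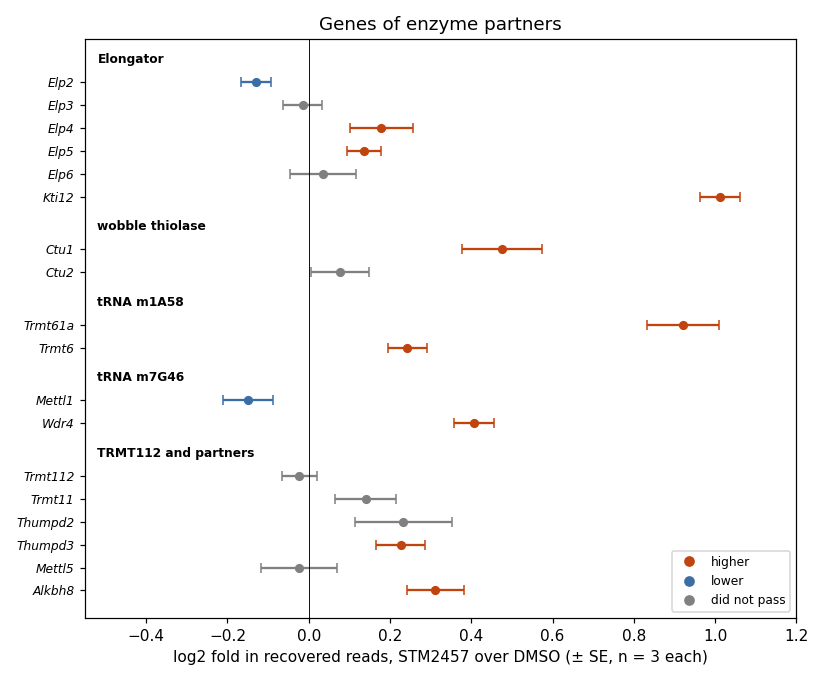
Log2 fold in recovered reads, STM2457 over DMSO, with SE (n = 3 libraries each), for genes whose proteins work together; red points passed the test as higher, blue as lower, grey did not pass. Kti12 (1.01) stands apart from Elp2 to Elp6 (-0.13 to 0.18), Trmt61a (0.92) from Trmt6 (0.24), and Mettl1 (-0.15) and Wdr4 (0.41) lie on opposite sides of 0.

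Among the other genes grouped under tRNA methylation, Trmt5, which methylates the guanosine next to the anticodon, had 741, 790 and 798 reads with STM2457 and 516, 536 and 526 with DMSO. It rose 1.46-fold (log2 fold 0.55, SE 0.06; adjusted p = 7.5e-09). Mettl6 and Mettl2 encode enzymes for 3-methylcytidine in the anticodon loop. Mettl6 had 887, 871 and 930 reads against 675, 611 and 628 in DMSO, a 1.40-fold rise (adjusted p = 5.4e-08), and Mettl2 had 783, 741 and 795 against 601, 662 and 600, a 1.24-fold rise (4.7e-05). Thumpd1, an adaptor that brings the acetyltransferase NAT10 to tRNA, rose 1.35-fold (adjusted p = 9.3e-09), with 1684, 1682 and 1632 reads with STM2457 against 1181, 1293 and 1191. In each of these 4 genes the lowest STM2457 library lay above the highest DMSO library.

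Trmt44, whose yeast counterpart methylates a ribose in serine tRNA, was expressed at a low level, with 190, 182 and 172 reads with STM2457 and 133, 116 and 89 with DMSO. It rose 1.62-fold (log2 fold 0.69, SE 0.12; adjusted p = 1.9e-05). Smaller rises came in Thumpd3 (1.17-fold, adjusted p = 0.0035), Trmt10a (1.16-fold, 0.02), Trmt2a (1.11-fold, 0.0078) and Trmt1l (1.10-fold, 0.018). Trmt10a no longer passed with DMSO replicate 1 or STM2457 replicate 1 or 3 left out (adjusted p from 0.053 to 0.062), Trmt2a with STM2457 replicate 1 left out (0.073) and Trmt1l with STM2457 replicate 2 left out (0.071). With upper-quartile centring these 3 calls were lost too (0.17, 0.14 and 0.24). Trmt13, whose yeast counterpart methylates a ribose of the acceptor stem, fell to 0.819 of DMSO (adjusted p = 0.01), with 161, 157 and 172 reads against 201, 210 and 184. Its exons overlap Lrrc39 and Sass6 on the other strand.

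TRMT112 is a small protein that stabilises several methyltransferases, among them TRMT11, THUMPD2, THUMPD3, METTL5 and ALKBH8. Trmt112 had the highest level per length of all members, 112 ± 3.4 RPKM with STM2457 and 114 ± 6.7 RPKM with DMSO (SD, n = 3 each; RPKM scales reads to exon length and library size), and did not pass the test (log2 fold -0.02, SE 0.04; adjusted p = 0.68). It has annotated pseudogenes and overlaps Esrra and Prdx5 on the other strand, so its reads are uncertain. Of these 5 partners, Thumpd3 and Alkbh8 rose, and Trmt11 (fold 1.10, adjusted p = 0.11), Thumpd2 (1.18, 0.088) and Mettl5 (0.984, 0.85) did not pass. Over all tested genes 30.7% rose and 25.7% fell. Thumpd2 passed without DMSO replicate 2 (adjusted p = 0.023), and Trmt11 passed without the trend and robust priors. Trmt1 (fold 1.01, adjusted p = 0.84) and Trmt10b (0.93, 0.44) did not pass either.

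Wybutosine is a bulky base built from guanosine beside the anticodon of phenylalanine tRNA, starting from the product of TRMT5. Of its 4 genes 3 rose (75%), beside 30.7% of all tested genes. Tyw1, which forms the tricyclic ring, had 841, 904 and 860 reads with STM2457 and 693, 717 and 692 with DMSO (1.23-fold, adjusted p = 2.5e-05). Trmt12, the next enzyme, had 217, 215 and 199 against 172, 159 and 127 (1.38-fold, adjusted p = 4.8e-04). Tyw5, a hydroxylase of the same base, had 311, 322 and 349 against 242, 221 and 231 (1.40-fold, adjusted p = 1e-05). In these 3 the groups did not overlap, whereas Tyw3 had 94, 118 and 127 against 108, 115 and 125 and did not pass (adjusted p = 0.74). The exons of Tyw5 overlap Maip1 on the other strand over 718 bases.

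**Figure D3:**
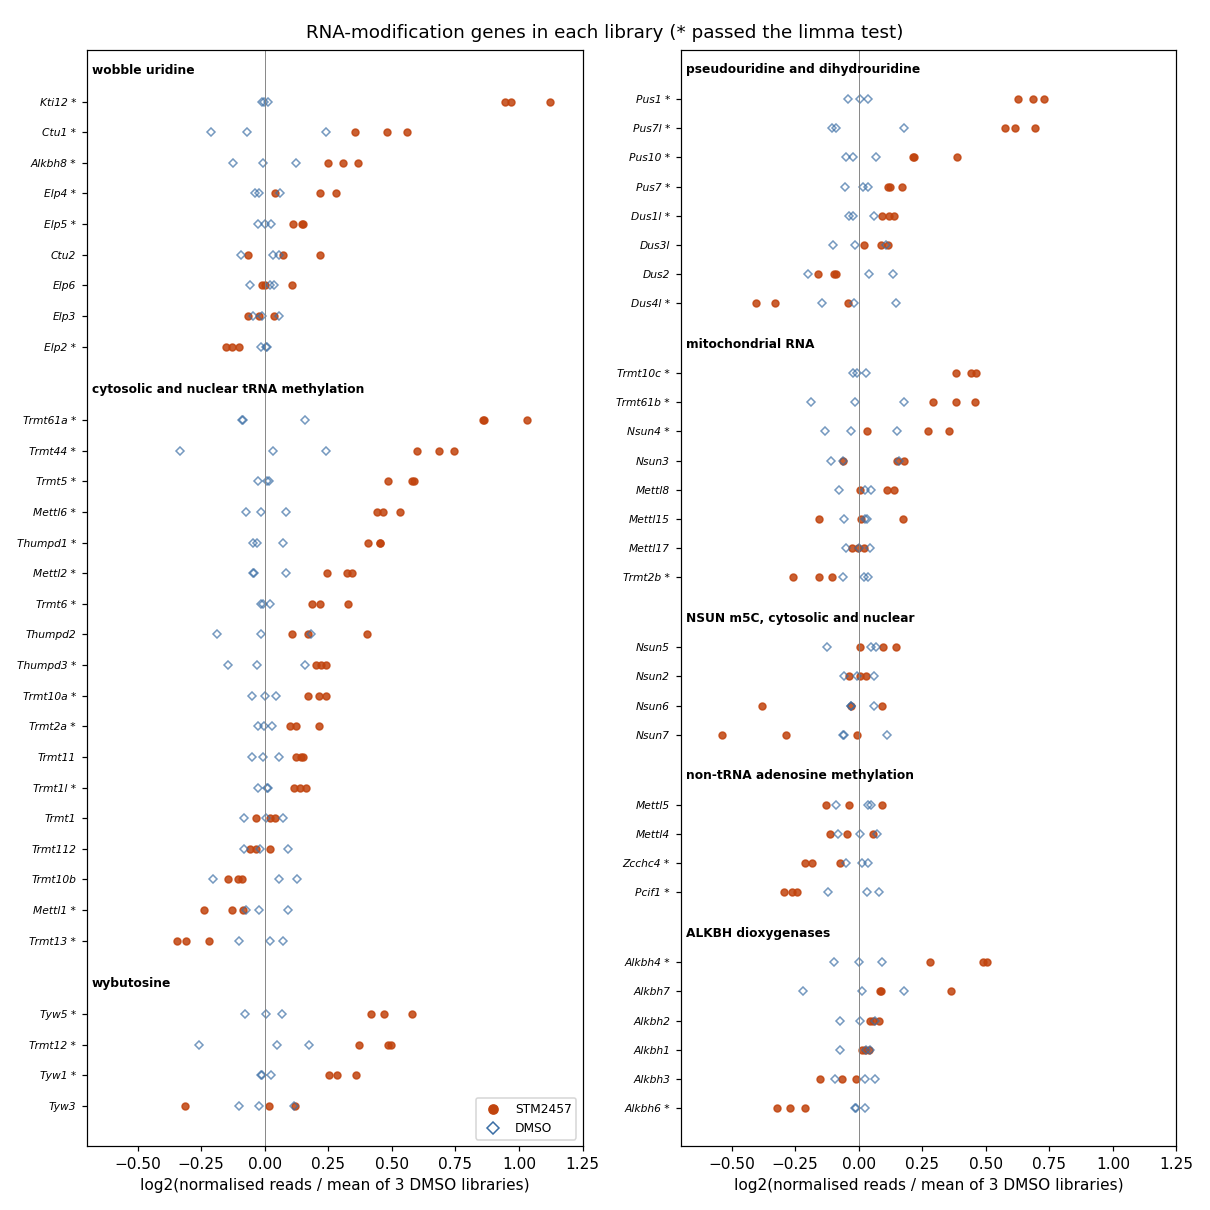
Normalised reads, in each library, of tested members outside the METTL genes with other substrates and the antisense RNAs, as log2 of the ratio to the mean of the 3 DMSO libraries; filled red circles are STM2457 libraries, open blue diamonds DMSO libraries, and an asterisk marks genes that passed the test. All 3 STM2457 libraries lie to the right of all DMSO libraries for Kti12, Trmt61a, Pus1, Trmt5 and Thumpd1. Groups overlap for Elp3, Trmt112, the 4 cytosolic and nuclear Nsun genes and the mitochondrial Nsun3 and Nsun4, of which Nsun4 passed the test.

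Pseudouridine synthases turn uridine into its isomer, and dihydrouridine synthases reduce it, chiefly in the D loop of tRNA. Of 8 tested genes 5 rose (62.5%) and 1 fell (12.5%), beside 30.7% and 25.7% of all tested genes. Pus1, which acts on tRNA in the nucleus and in mitochondria, had 1114, 1070 and 1150 reads with STM2457 and 667, 696 and 702 with DMSO. The groups were well separated, a rise of 1.60-fold (log2 fold 0.68, SE 0.05; adjusted p = 3.8e-11). The exons of Pus1 overlap Gm15559 and Gm26515 on the other strand. Pus7l, a relative of Pus7, had 470, 457 and 498 against 283, 347 and 285 (1.55-fold, adjusted p = 1.2e-07), and Pus10 had 656, 738 and 660 against 553, 593 and 540 (1.21-fold, 4.1e-04). Pus7, which also modifies messenger RNA, rose 1.10-fold (adjusted p = 0.0074), a call lost with upper-quartile centring (0.14).

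The dihydrouridine synthase genes changed little, and their calls lay near the threshold. Dus1l rose 1.09-fold at an adjusted p of 0.032, and no longer passed with DMSO replicate 1 or 3 or any 1 STM2457 library left out (adjusted p from 0.05 to 0.11) and with upper-quartile centring (0.37). Dus4l fell to 0.839 at an adjusted p of 0.031, with 198, 254 and 209 reads with STM2457 and 235, 290 and 256 with DMSO, which overlapped. It no longer passed with DMSO replicate 2 or 3 or STM2457 replicate 1 or 3 left out (adjusted p from 0.064 to 0.17). Dus2 (fold 0.928, adjusted p = 0.21) passed as lower without DMSO replicate 1 (0.013) and under upper-quartile centring (0.04), and Dus3l (1.05, 0.22) as higher without DMSO replicate 2 (0.028). Pus3 was listed at 0 in all 6 libraries. Of the 2972 exon bases of Pus3, 2618 overlap exons of Hyls1 on the other strand, which had 212, 219 and 198 reads with STM2457 and 211, 198 and 209 with DMSO. The part of that overlap in the zero was not tested.

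Mitochondrial RNA has separate enzymes. Of 8 tested genes 3 rose (37.5%) and 1 fell (12.5%), beside 30.7% and 25.7% of all tested genes. Trmt10c encodes a subunit of mitochondrial ribonuclease P that also methylates purines of mitochondrial tRNA, and had 819, 808 and 776 reads with STM2457 and 581, 606 and 585 with DMSO (1.35-fold; log2 fold 0.43, SE 0.05; adjusted p = 2.3e-07). Trmt61b, which makes N1-methyladenosine in mitochondrial RNA, had 147, 131 and 140 against 120, 106 and 93 (1.31-fold, adjusted p = 0.0057). GENCODE M21 lists Trmt61b as an antisense gene, and its exons overlap Spdya on the other strand. Both genes had every STM2457 library above every DMSO library.

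Nsun4, which methylates the small mitochondrial ribosomal RNA, had 317, 299 and 254 reads with STM2457 and 224, 275 and 240 with DMSO. The groups overlapped, and its call as higher (1.17-fold, adjusted p = 0.04) was lost with DMSO replicate 1 or 3 or STM2457 replicate 1 or 2 left out (0.1 to 0.22), with upper-quartile centring (0.22) and without the trend and robust priors (0.052). Trmt2b, a 5-methyluridine enzyme, fell to 0.888 (adjusted p = 0.028), but not with DMSO replicate 1 or 3 or STM2457 replicate 2 or 3 left out (0.054 to 0.15). Nsun3 (fold 1.07, adjusted p = 0.38), Mettl8 (1.06, 0.27), Mettl15 (1.01, 0.93) and Mettl17 (0.999, 0.99) did not pass.

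The 4 cytosolic and nuclear NSUN genes, for 5-methylcytidine, gave no call, whereas 30.7% of all tested genes rose and 25.7% fell. Nsun2, the main enzyme of that mark on tRNA, was the member with most reads, 6079, 5804 and 5991 with STM2457 and 6167, 5732 and 5869 with DMSO (log2 fold 0.00, SE 0.04; adjusted p = 0.98). Nsun5, for ribosomal RNA, had a fold of 1.06 (adjusted p = 0.27), Nsun6 of 0.93 (0.55) and Nsun7 of 0.831 (0.37). Nsun7 passed as lower with upper-quartile centring (0.032) and had only 16 to 25 reads per library.

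The 4 members grouped as methylating adenosine in RNA other than tRNA, with mitochondrial enzymes left out, gave 2 falls (50%) and no rise. Trmt61b, for N1-methyladenosine in mitochondrial RNA, rose and was counted with the mitochondrial genes. Of all tested genes 25.7% fell and 30.7% rose. Pcif1, which methylates the adenosine next to the cap, had 1261, 1303 and 1290 reads with STM2457 and 1408, 1633 and 1561 with DMSO. It fell to 0.833 of DMSO (log2 fold -0.26, SE 0.05; adjusted p = 6.3e-05), without overlap. Its exons overlap Zfp335 on the other strand over 1107 bases. Zcchc4, for the large ribosomal RNA, had 750, 825 and 766 against 831, 876 and 880 (0.898 of DMSO, adjusted p = 0.015). It no longer passed with DMSO replicate 3 or STM2457 replicate 1 or 3 left out (0.061 to 0.084). Mettl5, for the small ribosomal RNA, had 217, 186 and 199 against 190, 209 and 208. Mettl4, which acts on a small nuclear RNA, had a fold of 0.978 (adjusted p = 0.71).

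ALKBH proteins are iron-dependent dioxygenases that remove or oxidise methyl groups. Alkbh4, whose reported substrates include actin, had 163, 188 and 191 reads with STM2457 and 133, 143 and 124 with DMSO (1.34-fold, adjusted p = 8.8e-04). Alkbh6 had 251, 260 and 271 against 308, 311 and 315 and fell to 0.831 (adjusted p = 0.0038). In neither did the groups overlap. Alkbh1, a demethylase of tRNA, had a fold of 1.02 (adjusted p = 0.70), and the repair enzyme genes Alkbh2 (1.04, 0.62) and Alkbh3 (0.949, 0.32) did not pass, nor did Alkbh7 (1.14, 0.14), a mitochondrial member of the family. Alkbh7 passed without DMSO replicate 3 (0.047) and Alkbh3 as lower with upper-quartile centring (0.046).

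Of the 10 tested METTL genes with other substrates 5 fell (50%) and 1 rose (10%), beside 25.7% and 30.7% of all tested genes. Among those that fell were Mettl27 and Mettl7b, the members that passed the test with a fall of at least 1.5-fold. Mettl27, whose substrate is not settled, had 21, 31 and 29 reads with STM2457 and 78, 85 and 74 with DMSO. It fell to 0.339 of DMSO (log2 fold -1.56, SE 0.19; adjusted p = 1.8e-08), at a low level of 0.451 ± 0.088 against 1.34 ± 0.094 RPKM (SD, n = 3 each). Mettl7b, a membrane-bound methyltransferase of small thiols, had 136, 128 and 144 against 296, 359 and 385 and fell to 0.392 (log2 fold -1.35, SE 0.11; adjusted p = 8.8e-11). Mettl23, a histone arginine methyltransferase, had 333, 324 and 338 against 456, 486 and 485 (0.693, adjusted p = 2.2e-07). Its exons overlap Jmjd6 and Srsf2 on the other strand and Mfsd11 on the same strand. Mettl22, which methylates the protein KIN, had 168, 176 and 178 against 238, 234 and 211 (0.76, adjusted p = 4.9e-04). The groups overlapped in none of these 4.

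Mettl21a, for a lysine of HSP70 chaperones, fell to 0.899 (adjusted p = 0.038) with overlapping groups, and no longer passed with DMSO replicate 2 or 3 or STM2457 replicate 1 or 2 left out (0.058 to 0.23). Mettl18, which methylates a histidine of the ribosomal protein RPL3, went the other way. It had 200, 203 and 175 reads with STM2457 and 89, 126 and 108 with DMSO, a rise of 1.79-fold (log2 fold 0.84, SE 0.12; adjusted p = 8.9e-07). Mettl9 (fold 0.958, adjusted p = 0.21), Mettl7a1 (0.862, 0.17), Mettl25 (0.861, 0.16) and Mettl26 (1.08, 0.13) did not pass. With upper-quartile centring Mettl9 (0.0086), Mettl7a1 (0.032) and Mettl25 (0.028) passed as lower, and Mettl7a1 did so without DMSO replicate 3 (0.046). Mettl21e, Mettl7a2 and Mettl7a3 were listed at 0 in all libraries, Mettl11b had 1 read and Mettl24 had 2 reads, all with DMSO, and Mettl21c had 2, 2 and 5 reads with STM2457 and 0, 2 and 4 with DMSO. Mettl7a1, Mettl7a2 and Mettl7a3 are close copies, with which reads may be shared. Of the antisense RNAs, Alkbh3os1 had 5, 11 and 8 reads against 11, 12 and 14 (adjusted p = 0.17) and passed as lower with upper-quartile centring (0.0055), and Mettl5os had 1, 2 and 4 against 4, 5 and 2.

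**Figure D4:**
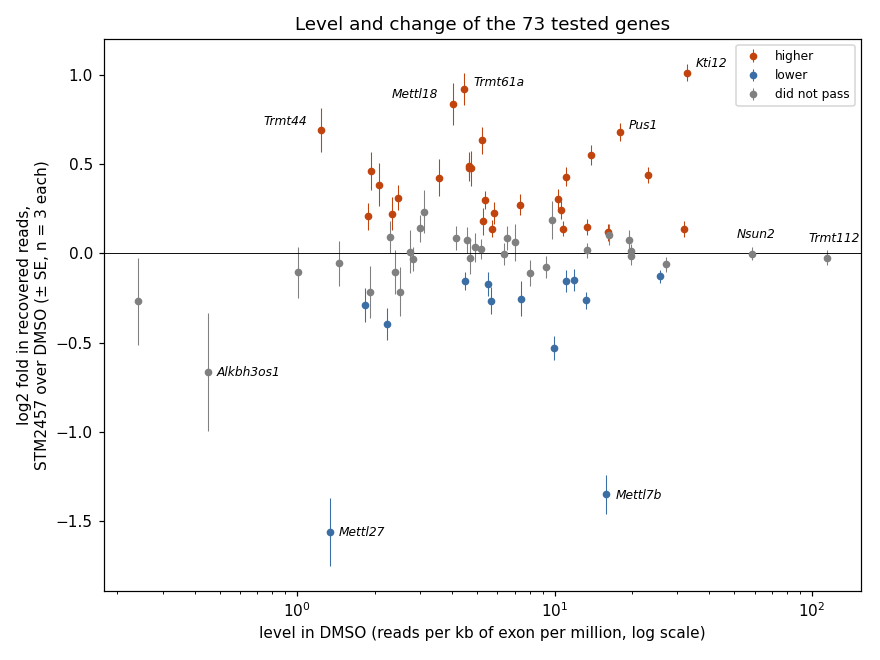
Each point is 1 of the 73 tested genes, with its level in DMSO in RPKM on a log axis and its log2 fold in recovered reads, STM2457 over DMSO, with SE (n = 3 each). Mettl27 and Mettl7b lie lowest, at -1.56 and -1.35, Kti12 highest at 1.01, and the most expressed genes per length, Trmt112 and Nsun2, lie at -0.02 and 0.00.

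On the RPKM scale Kti12 followed Trmt112 among the members with STM2457, at 65.6 ± 4.4, against 32.7 ± 0.45 with DMSO (SD, n = 3 each). Nsun2 followed at 58 ± 1.4 with STM2457 and 58.4 ± 2.2 with DMSO, so that Kti12 stood above Nsun2 with STM2457 and below it with DMSO. Elp5 came next by its level with STM2457, at 34.6 ± 0.44, against 31.7 ± 0.61 with DMSO. Then came Thumpd1 (31.0 ± 0.51, against 23.0 ± 1.2 with DMSO) and Pus1 (28.5 ± 1.1, against 17.9 ± 0.48). This order holds with STM2457 only, since with DMSO Mettl9 (27.2 ± 0.85) and Elp2 (25.6 ± 0.082) lay above Thumpd1 and Pus1. Among the tested protein-coding members, 7 of the 28 that rose had at most 3 exons in their longest coding transcript (Kti12, Trmt12, Mettl18, Trmt10c, Trmt61a, Ctu1 and Alkbh4), or 25%, against 2 of 13 that fell and 1 of 30 that did not pass. Over all tested protein-coding genes the shares were 16.9%, 8.51% and 11.4% in that order. Trmt61b, annotated as antisense, rose and is left out of these shares and of the medians that follow. The motif GGACT, a sequence that METTL3 commonly methylates, occurred a median of 1.02 times per kilobase of transcript in members that rose, 1.5 in those that fell and 1.05 in those that did not pass, against 1.08, 1.00 and 1.02 over all genes. These values describe the transcripts and carry no test, and methylation was not measured here.

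Of 68 tested genes of the same pathways that the name rule leaves out, 31 rose (45.6%) and 11 fell (16.2%). Of 23 ribosomal RNA modification genes 16 rose (69.6%) and 1 fell (4.35%), and of 34 other tRNA modification genes 10 rose (29.4%) and 6 fell (17.6%), beside 30.7% and 25.7% of all tested genes. The difference between these lists was not tested. The methyltransferase gene Nop2, for a cytosine of the large ribosomal RNA, had 4016, 4160 and 3727 reads with STM2457 and 2093, 2197 and 2014 with DMSO (1.87-fold, adjusted p = 4.7e-14). Mrm3, a ribose methyltransferase of mitochondrial ribosomal RNA, rose 1.84-fold (adjusted p = 2.2e-10). Mepce, which caps a small nuclear RNA, rose 1.44-fold (1.2e-09), Ftsj3, of ribosomal RNA processing, 1.31-fold (3.0e-09), and Nhp2, of the pseudouridine guide particles, 1.39-fold (4.9e-09). Bcdin3d, a methyltransferase of histidine tRNA ends, had 224, 237 and 219 reads with STM2457 and 388, 400 and 377 with DMSO and fell to 0.58 (adjusted p = 2.4e-09).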

How the data were processed

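Per the labels' protocols, a SMARTER mRNA kit was used on RNA taken up in TRIzol. The authors deposited log2 values, 1 table with a row for each gene symbol and a column for each library, matched to the samples by column name. DESeq2, featureCounts 2.0.1 (Subread), HISAT2 2.2.1 and FastQC 0.11.9 are named, with build GRCm38, in the submitters' processing notes. No label states the transform, the annotation or whether strand was used. The values behave as regularised log2 values, with each gene's differences shrunken towards its mean, so that 59.95% of a difference remains in genes with many reads. Reads were recovered by inverting that transform. For 17546 genes with a mean under 500 reads, 98.83% of recovered values were whole to within 0.05 reads; from 500 to 2000 reads 85.95% were, and above that 48.59%, so higher values may be off by some reads. The inversion and the fits were tried on simulated data made with the same transform and its estimated settings. That trial cannot show whether the deposited values have this form. The limit that a count of 0 allows is 3 reads, or 0.167 to 0.170 CPM, and covers counting error only.

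Genes with a mean of at least 10 reads on the deposited scale (12618) entered linear models in limma 3.58.1 under R 4.3.3 (group as the only term, mean-variance trend, robust priors), with Benjamini-Hochberg adjustment over all of them and a threshold of 0.05. Adjusted p-values in the text come from that fit. Folds, log2 folds and their SE come from limma-voom on the recovered reads. Gene positions, exon lengths and overlaps come from GENCODE M21 on GRCm38. Levels per length divide reads by the union of a gene's exons.

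The members, role groups and the list of 71 other genes were chosen with earlier results of these data known. Named in full were up to 12 members that rose and up to 12 that fell, by size of the deposited log2 difference among those that passed, the member of smallest adjusted p in each role, partner sets, Mettl3, and the 6 other genes of smallest adjusted p. Hyls1 was added after its values were seen. Alternatives tried were another scaling, other filters, priors without trend, limma-voom, a replicate block and leaving out each library. No sample column of the table was left unused. Values of 1 member are not reported here, although counts over the members include it.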

Additional observations from a re-analysis of the deposited data

How the results depend on the processing

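Across 12 alternative settings, no called member reversed its direction. Of the 29 calls as higher 21 were kept in every setting and 23 without any 1 library; of the 13 calls as lower 8 were kept in every setting, and 8 without any 1 library. Members that rose numbered 24 to 30 and those that fell 9 to 13 when 1 library was left out. With upper-quartile centring, which moved the median of all tested genes by -0.04 on the log2 scale, 20 members were lower and 21 higher, with 4814 lower and 2819 higher among all 12618 tested genes; the other settings with all libraries gave 28 or 29 higher and 13 lower. Limma-voom on the recovered reads gave the same call for all 73 members. The list of other RNA modification genes had 25 to 31 higher and 9 to 16 lower over all settings. Deviations of same-numbered libraries of the groups were weakly correlated (0.05, 0.01 and 0.04 for replicates 1 to 3, over 12618 genes). For libraries of different number the correlations ran from -0.056 to 0.022. The labels do not say whether the numbers pair cultures, and these values cannot decide it. With the replicate block 28 members were higher and 13 lower. The low genes Nsun7 and Alkbh3os1 did not pass (limma adjusted p = 0.37 and 0.17) but passed as lower with upper-quartile centring (0.032 and 0.0055). With 3 libraries per group their differences remain uncertain.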
